A study of Homo sapiens with 19 samples.

Results

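Angiogenic factors and receptors were examined as a set of 9 genes taken by symbol: VEGFA, VEGFB, VEGFC, PGF, ANGPTL4, FLT1, NRP1, ADM and EDN1. All 9 were present among the 23441 gene symbols of the count table, and all 9 passed the filter on low counts that left 14225 genes for testing. The cells were pools of 786-O, an established human cell line of clear cell kidney cancer origin without functional VHL, which lets HIF-2α accumulate in normal oxygen. One pool had been transduced with the empty bicistronic vector (control cells), one with the same vector carrying HIF-1α (HIF-1α re-expressing cells) and one with HIF-2α (HIF-2α overexpressing cells). All 3 pools share the VHL defect and the endogenous HIF-2α, so that no group lacks HIF-2α. The line makes no full-length HIF-1α but does make truncated HIF1A transcripts, which count toward HIF1A. RNA-seq gave 3 libraries per pool, with 27852754 to 54287621 counts each. ChIP-seq gave 1 peak list per antiserum and pool, 7 in all.

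Growth of blood vessels is driven by secreted ligands of the VEGF family that bind receptor kinases on endothelial cells, with neuropilins as co-receptors. VEGFA is the ligand that made clear cell renal carcinoma known as a vascular tumor, and its gene is a textbook target of HIF, the heterodimer of a HIF-α subunit with HIF-1β that binds the hypoxia response element. ANGPTL4, a secreted inhibitor of lipoprotein lipase, ADM, the vasodilator adrenomedullin, and EDN1, the vasoconstrictor endothelin-1, are further HIF-linked genes.

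To show what HIF binding near these genes looks like in sequence, 300-bp windows at the midpoints of 7 peaks are given first (GRCh37, plus strand, 5′ to 3′). They were chosen to show the sites the results below refer to, among windows that hold a match and touch no annotated untranslated part of a transcript. Capitals mark the core of the hypoxia response element (HRE), searched as ACGTG or GCGTG on either strand, which reads CACGT or CACGC on the strand printed. CACGTG holds a match on each strand and counts as 2 overlapping cores.
NRP1 start: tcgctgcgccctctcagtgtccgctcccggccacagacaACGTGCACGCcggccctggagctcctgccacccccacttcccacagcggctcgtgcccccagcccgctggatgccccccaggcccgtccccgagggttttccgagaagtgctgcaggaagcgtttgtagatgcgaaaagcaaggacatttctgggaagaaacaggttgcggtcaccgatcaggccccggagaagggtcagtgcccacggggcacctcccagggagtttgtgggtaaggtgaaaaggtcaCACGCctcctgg
NRP1 intron: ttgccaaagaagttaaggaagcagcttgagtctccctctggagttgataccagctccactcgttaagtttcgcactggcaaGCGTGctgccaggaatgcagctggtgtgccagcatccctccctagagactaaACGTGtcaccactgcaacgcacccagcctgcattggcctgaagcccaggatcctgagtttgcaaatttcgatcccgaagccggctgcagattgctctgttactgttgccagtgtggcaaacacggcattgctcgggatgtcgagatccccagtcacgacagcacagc
VEGFA start: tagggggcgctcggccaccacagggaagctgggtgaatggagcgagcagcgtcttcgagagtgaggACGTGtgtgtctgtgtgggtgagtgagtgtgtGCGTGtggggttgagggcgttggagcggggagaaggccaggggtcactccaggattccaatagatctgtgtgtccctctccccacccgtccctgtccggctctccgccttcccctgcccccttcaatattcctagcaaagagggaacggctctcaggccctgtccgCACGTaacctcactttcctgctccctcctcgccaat
ADM upstream: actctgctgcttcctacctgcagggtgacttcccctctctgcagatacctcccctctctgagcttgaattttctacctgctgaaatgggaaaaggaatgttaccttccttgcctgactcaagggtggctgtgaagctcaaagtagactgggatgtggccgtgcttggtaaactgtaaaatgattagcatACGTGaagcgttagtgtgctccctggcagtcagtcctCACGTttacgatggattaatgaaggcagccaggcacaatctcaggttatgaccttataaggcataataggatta
ADM downstream: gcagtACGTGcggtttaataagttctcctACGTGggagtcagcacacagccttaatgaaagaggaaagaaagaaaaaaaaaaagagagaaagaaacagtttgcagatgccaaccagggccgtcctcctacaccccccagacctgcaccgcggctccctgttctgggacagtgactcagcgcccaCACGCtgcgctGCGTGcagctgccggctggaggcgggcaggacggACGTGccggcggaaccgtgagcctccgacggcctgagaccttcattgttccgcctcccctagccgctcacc
ANGPTL4 upstream: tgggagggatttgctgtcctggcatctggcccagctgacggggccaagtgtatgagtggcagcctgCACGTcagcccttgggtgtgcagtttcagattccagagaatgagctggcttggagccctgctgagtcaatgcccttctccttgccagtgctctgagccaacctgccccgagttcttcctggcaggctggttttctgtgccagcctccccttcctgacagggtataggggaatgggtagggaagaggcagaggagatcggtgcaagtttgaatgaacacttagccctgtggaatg
EDN1 upstream: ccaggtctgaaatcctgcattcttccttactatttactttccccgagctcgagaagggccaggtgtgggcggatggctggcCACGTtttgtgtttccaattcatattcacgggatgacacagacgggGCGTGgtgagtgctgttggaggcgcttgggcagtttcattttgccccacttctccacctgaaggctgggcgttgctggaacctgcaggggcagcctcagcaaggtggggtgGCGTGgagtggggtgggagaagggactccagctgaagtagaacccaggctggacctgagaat
The first window (chr10:33624778-33625077) is that of the HIF-1β peak of HIF-2α overexpressing cells, 0.263 kb inside NRP1 in an intron, and held 3 cores. The second (chr10:33562269-33562568) is an intronic NRP1 peak of overexpressed HIF-2α, 62.8 kb from the 5′ end of the gene, with 2 cores. The VEGFA window (chr6:43737371-43737670) is that of the HIF-1α peak 0.401 kb before the gene and held 3. The windows at ADM lie before the gene (chr11:10325581-10325880, HIF-1β in control cells, 2 cores) and beyond its 3′ end toward AMPD3 (chr11:10329538-10329837, HIF-2α in control cells, 5 cores). At that downstream site the windows of 3 lists held cores and those of the other 4, whose midpoints lie further from ADM, held none. The ANGPTL4 window (chr19:8426961-8427260) is that of the HIF-2α peak of control cells 1.06 kb before the gene, with 1 core, and the EDN1 window (chr6:12288078-12288377) that of the HIF-1β peak of control cells 2.37 kb before the gene, with 3. Among all peaks of the same list, a window of this length held at least 1 core in 59.7% of HIF-2α and 57.2% of HIF-1β peaks in control cells, 65.4% of HIF-1α peaks, 45.7% of HIF-2α and 66.0% of HIF-1β peaks in HIF-2α overexpressing cells, and 48.4% of 35116 RefSeq promoters (GRCh38.p14) held one. A match is a run of letters and does not by itself mark a bound site.

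The transduced genes were measured first. HIF1A read 30.4, 36.7 and 151.6 CPM (reads of the gene relative to the TMM-scaled library size) in control libraries 1 to 3 and 171.5, 1682 and 472.6 in the HIF-1α re-expressing libraries. EPAS1, which encodes HIF-2α, read 455.9, 224.2 and 162.1 in control cells and 945.9, 3244 and 879.8 in HIF-2α overexpressing cells. It read 575.3, 627.1 and 397.1 in HIF-1α re-expressing cells, within or above the control range. Within numbers 1, 2 and 3 EPAS1 was higher there than in control cells, by ratios of 1.26, 2.80 and 2.45. HIF1A was lower in HIF-2α overexpressing than in control cells, by ratios of 0.503, 0.827 and 0.115. Each transduced gene was above control cells in its own pool without overlap, but the extent of overexpression differed between replicate numbers. In its own pool HIF1A was raised 5.64, 45.8 and 3.12 times, and EPAS1 2.07, 14.5 and 5.43 times, within numbers 1, 2 and 3. Of the renal markers PAX8, PAX2, KRT8, KRT18 and VIM, all 5 were above 5 CPM in every library, while all 6 endothelial markers (PECAM1, CDH5, VWF, CLDN5, EMCN and ROBO4) stayed below 1 CPM everywhere. The summed endothelial CPM was 0.797 to 1.24 in control, 0.658 to 1.30 in HIF-1α re-expressing and 0.872 to 1.2 in HIF-2α overexpressing libraries, and CDH5 had no count in 7 of the 9 libraries.

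Levels of the members were compared per kb of exon (union of all annotated exons), as mean ± SD of 3 libraries. In control cells ADM was the highest at 60.6 ± 6.75 CPM per kb, and its libraries did not overlap those of the next gene, VEGFB at 34.4 ± 11.6. VEGFA followed at 33.1 ± 16.5, ANGPTL4 at 22.9 ± 16.9, NRP1 at 15.9 ± 3.12 and EDN1 at 15.4 ± 13.6. From VEGFB down to VEGFC at 10.5 ± 2.01 each gene overlapped its neighbor, so that the order of neighbors does not exceed the spread between libraries. Genes further apart could separate. VEGFB (21.3 to 42.8) and VEGFA (20.0 to 51.6) lay above NRP1 (13.5 to 19.4) and VEGFC (8.58 to 12.6) without overlap. PGF at 0.682 ± 0.234 and FLT1 at 0.0108 ± 0.00483 lay apart below. ADM and VEGFA were the 2 highest in both transduced pools, at 86.7 ± 37.7 and 79.2 ± 34.0 in HIF-1α re-expressing cells and 102.5 ± 33.5 and 69.8 ± 19.5 in HIF-2α overexpressing cells, and their libraries overlapped in each. NRP1 held the fifth place in control cells, the fourth in HIF-1α re-expressing cells (33.2 ± 12.3) and the seventh in HIF-2α overexpressing cells (7.46 ± 1.27), where it lay below VEGFC (11.7 ± 2.44) without overlap. With the longest transcript as the length, NRP1 came sixth there, above VEGFC.

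**Figure D1:**
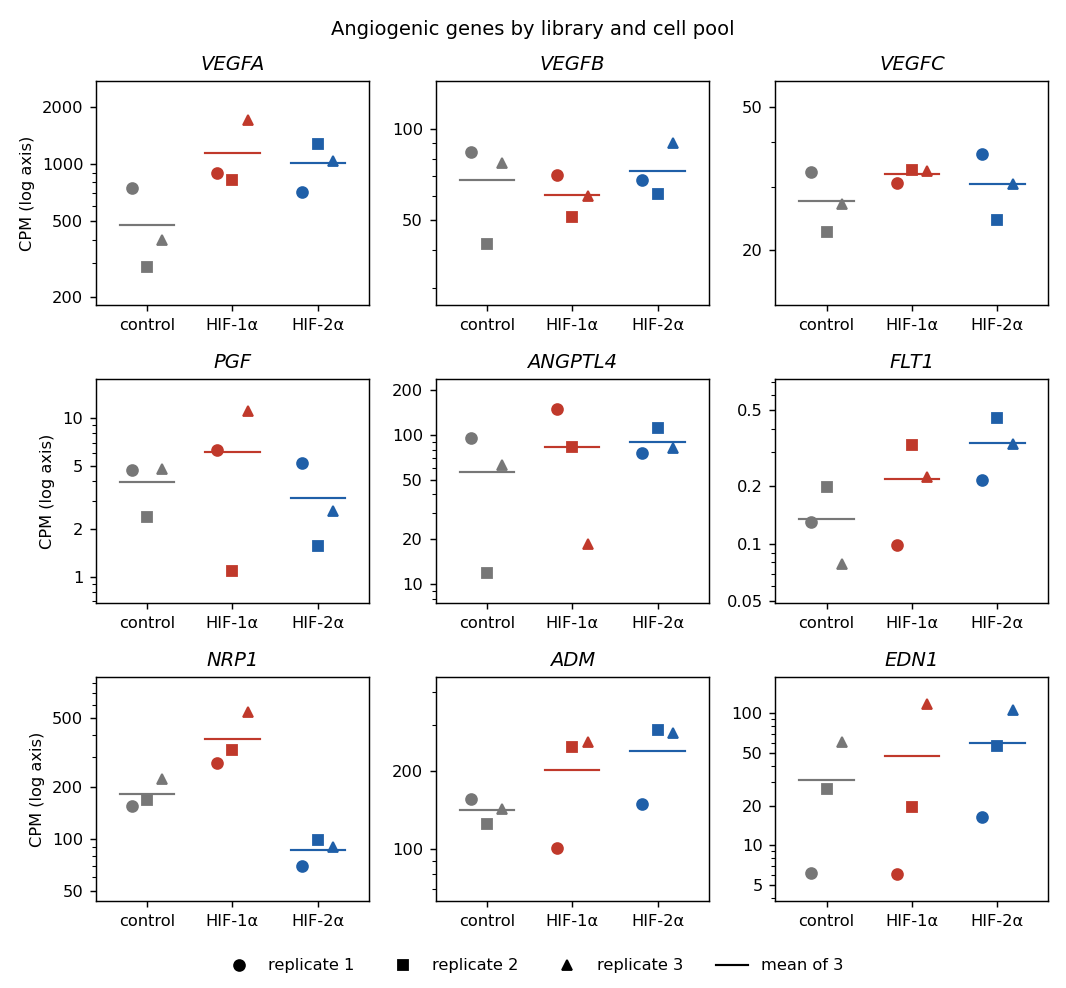
TMM-scaled CPM (log axis) of the 9 genes in each RNA-seq library, by cell pool. Each symbol is 1 library, its shape gives the replicate number and the line is the mean of 3. NRP1 separates the 3 pools without overlap, whereas EDN1 separates by replicate number, from 6.18 to 61.0 CPM within control cells.

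NRP1, the neuropilin-1 co-receptor for VEGF and class 3 semaphorins, was the member whose level followed the cell pool most closely. It read 155.4, 169.6 and 223.5 CPM in control cells, 275.8, 326.9 and 543.6 in HIF-1α re-expressing cells and 69.7, 98.3 and 89.9 in HIF-2α overexpressing cells. Every HIF-1α library was above every control library and every HIF-2α library below, in opposite directions for the 2 transduced pools. In bulk RNA, a change in the number of cells with a transcript and a change in RNA per cell cannot be told apart.

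Whether the RNA level of these genes differed between pools was asked with a quasi-likelihood test in edgeR on the 9 libraries together, with Benjamini-Hochberg adjustment over all genes tested and a threshold of 0.05. The fit had the cell pool as its only term. Since libraries with the same replicate number deviated together, a second edgeR fit that adds the replicate number (the replicate block) is given where it changes a call. Both comparisons with control cells use the same 3 control libraries. In the direct contrast of HIF-1α re-expressing with HIF-2α overexpressing cells, NRP1 differed by 2.15 ± 0.30 on the log2 scale (SE), with an adjusted p of 0.0527 in edgeR without the block and 0.00209 with it (2.10 ± 0.20). The ratios within replicate numbers 1, 2 and 3 were 3.96, 3.33 and 6.05. The call with the block was retained when any single library was left out (edgeR adjusted p 0.00263 to 0.0191), and DESeq2 without the block gave an adjusted p of 2.74e-08. Over 31 settings NRP1 was higher in HIF-1α re-expressing cells in 31 and past the threshold in 21, with the highest adjusted p at 0.187.

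Against control cells, NRP1 was higher in HIF-1α re-expressing cells by 1.06 ± 0.29 (log2, edgeR adjusted p = 0.162), with ratios of 1.78, 1.93 and 2.43. It passed the threshold with the replicate block (1.03 ± 0.20, edgeR adjusted p = 0.0352), but left-out libraries decided this call: without HIF-1α replicate 1, 2 or 3, HIF-2α replicate 1 or control replicate 2 or 3, in turn, the adjusted p was 0.0579, 0.0725, 0.0958, 0.0570, 0.197 and 0.136. In HIF-2α overexpressing cells NRP1 was lower by ratios of 0.449, 0.580 and 0.402, a log2 difference of -1.09 ± 0.29 (edgeR adjusted p = 0.718) that stayed short of the threshold with the block (-1.07 ± 0.20, adjusted p = 0.0690). It passed there without HIF-1α replicate 3 (edgeR adjusted p = 0.0357).

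**Figure D2:**
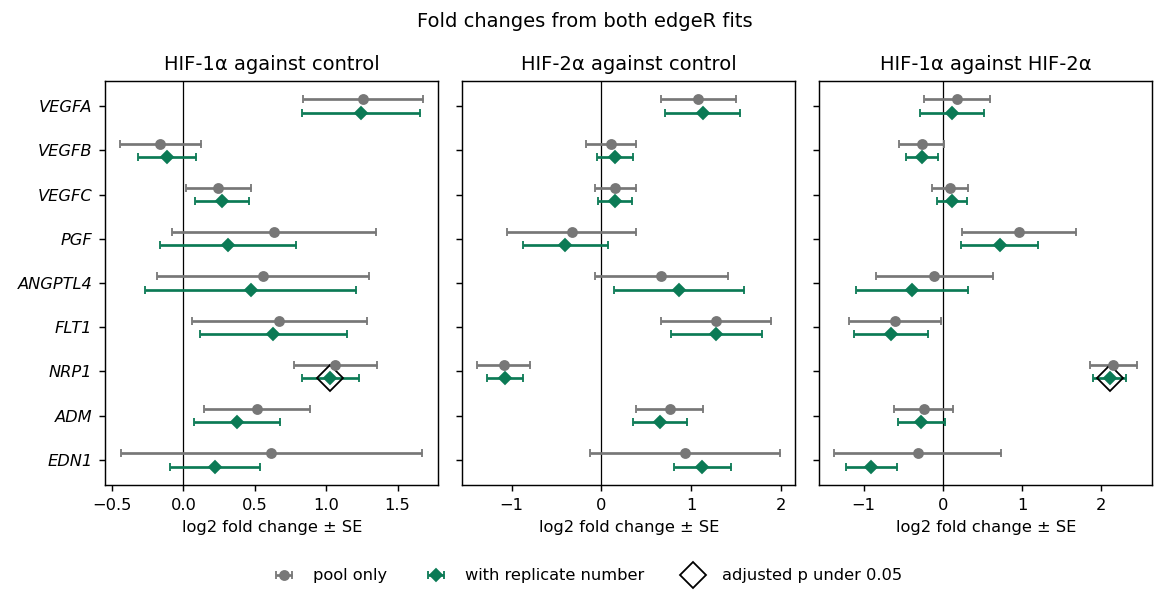
Log2 fold change (points) with its standard error (bars) of the 9 genes in the 3 comparisons, from edgeR with the cell pool only (gray circles) and with the replicate number as a block (green diamonds). Large open diamonds mark an adjusted p under 0.05, which NRP1 reached with the block at 1.03 in HIF-1α re-expressing against control cells and at 2.10 in the direct contrast.

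Among the ligands, VEGFA, the main endothelial growth factor, read 745.3, 288.5 and 398.9 CPM in control cells. It read 895.4, 825.8 and 1707 in HIF-1α re-expressing cells, all above the control libraries. It read 712.8, 1274 and 1035 in HIF-2α overexpressing cells, where library 1 lay within the control range. The ratio within replicate number 1 was 1.2 for HIF-1α and 0.956 for HIF-2α, against 2.86 and 4.42 in number 2 and 4.28 and 2.59 in number 3. The log2 differences were 1.26 ± 0.42 for HIF-1α (edgeR adjusted p = 0.188, 0.0816 with the block) and 1.08 ± 0.42 for HIF-2α (0.825, 0.287 with the block), neither past the threshold. Control replicate 1, the library with the highest VEGFA among the controls, weighed on this: without it, edgeR with the block gave 1.88 for HIF-1α with an adjusted p of 0.0211. HIF-1α re-expressing and HIF-2α overexpressing cells differed by 0.18 ± 0.41, less than the standard error.

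Of the other VEGF ligands, VEGFB and VEGFC varied little between pools. VEGFB, which signals through FLT1, read 84.3, 41.9 and 77.4 CPM in control cells, 70.6, 51.4 and 60.1 in HIF-1α re-expressing cells and 67.9, 61.0 and 90.3 in HIF-2α overexpressing cells. VEGFC, the lymphatic growth factor, ranged from 22.5 to 37 CPM over the 9 libraries, with log2 differences of 0.25 ± 0.23 and 0.16 ± 0.23 from control cells. For both genes the pools overlapped in all 3 comparisons. PGF, placental growth factor and another FLT1 ligand, was low at 1.09 to 11 CPM, both extremes being HIF-1α re-expressing libraries. Its log2 difference between the transduced pools was 0.96 ± 0.72 (edgeR adjusted p = 0.585).

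ANGPTL4 spread widely within pools. It read 94.9, 11.9 and 63.1 CPM in control cells, 148.5, 83.4 and 18.6 in HIF-1α re-expressing cells and 76.1, 111.9 and 81.8 in HIF-2α overexpressing cells. The low library was number 2 among the controls and number 3 in the HIF-1α pool, so that the ratio within number 2 reached 7.0 and 9.39 for HIF-1α and HIF-2α while that within number 3 was 0.295 and 1.30. Its standard errors, 0.74 on the log2 scale in both comparisons with control cells, exceeded its differences of 0.56 and 0.67. FLT1, the VEGF receptor kinase VEGFR1, had only 3 to 13 counts per library and at most 0.454 CPM. It was higher in HIF-2α overexpressing than in control cells without overlap, at 9, 13 and 13 counts against 5, 7 and 3, a log2 difference of 1.28 ± 0.61 that was not past the threshold (edgeR adjusted p = 0.837, 0.311 with the block).

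Of the vasoactive peptides, ADM read 155.7, 124.4 and 142.4 CPM in control cells, 100.4, 246.2 and 257.8 in HIF-1α re-expressing cells and 148.3, 286.7 and 279.8 in HIF-2α overexpressing cells. Number 1 was thus the low library of each transduced pool and lay within or below the control range, while numbers 2 and 3 lay above it. The log2 differences from control cells were 0.52 ± 0.37 and 0.76 ± 0.37 (edgeR adjusted p = 0.450 and 0.837). Without control replicate 1, edgeR with the block gave 0.85 for HIF-1α with an adjusted p of 0.0308.

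EDN1 read 6.18, 26.9 and 61.0 CPM in control cells, 6.03, 19.7 and 118.2 in HIF-1α re-expressing cells and 16.4, 56.8 and 106.2 in HIF-2α overexpressing cells. In every pool the library numbered 1 was the lowest and that numbered 3 the highest, with mean deviations from the pool of -1.76, 0.10 and 1.66 on the log2 scale for numbers 1, 2 and 3. No other member deviated by more than 1.12 by number. Within numbers, EDN1 was higher in HIF-2α overexpressing than in control cells by 2.66, 2.11 and 1.74 times. The log2 difference was 0.93 ± 1.06 without the block (edgeR adjusted p = 0.886) and 1.12 ± 0.32 with it (0.200). DESeq2 with the block called EDN1 in this comparison.

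**Figure D3:**
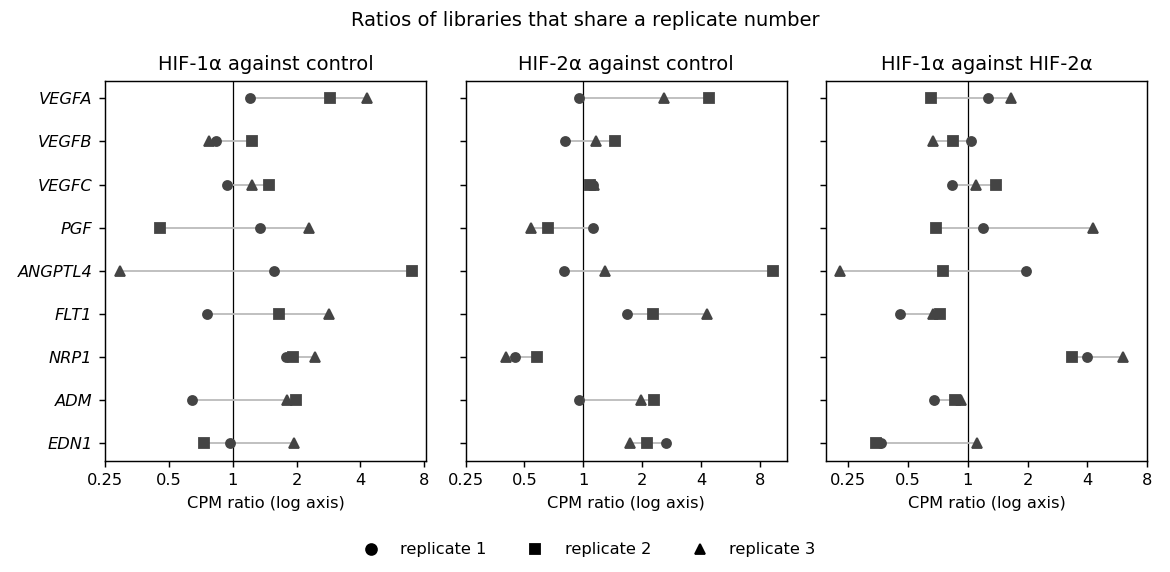
Ratio of CPM (log axis) between libraries that share a replicate number, for the 9 genes in the 3 comparisons. Each symbol is 1 replicate number and a vertical line marks a ratio of 1. The ratios of NRP1 lie to 1 side of the line in all 3 panels, from 3.33 to 6.05 in the direct contrast, whereas those of ANGPTL4 run from 0.295 to 7.0 in HIF-1α re-expressing against control cells.

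Counted over the 9 members, edgeR without the block called 0 in each comparison (0%, 0% and 0.0492% of all genes tested). At an unadjusted p under 0.05 it found 2 (VEGFA and NRP1) for HIF-1α, 2 (VEGFA and NRP1) for HIF-2α and 1 (NRP1) in the direct contrast, where 19.4%, 5.89% and 13.6% of all genes were under it, so that 2 of 9 for HIF-1α and 1 of 9 in the direct contrast lie near the background. With the replicate block it called 1, 0 and 1 members, NRP1 each time, where 7.96%, 0.267% and 5.93% of all genes were called in either direction. DESeq2 without the block likewise called 1, 0 and 1 (5.46%, 0.423% and 4.25% of genes with an adjusted p), DESeq2 with the block 2, 2 and 2 (22%, 3.39% and 12.5%), and limma-voom 0, 0 and 1 (0%, 0.00703% and 0.373% of all genes tested). The 2 of DESeq2 with the block were VEGFA and NRP1 for HIF-1α, and NRP1 and EDN1 in the other comparisons. Libraries did not overlap for 2 members (VEGFA and NRP1), 2 members (FLT1 and NRP1) and 1 member (NRP1), where 24.1%, 11.2% and 19.2% of all genes did not overlap, so these counts do not set the members apart. The fitted difference was positive for 8 of 9 members in HIF-1α re-expressing cells and 7 of 9 in HIF-2α overexpressing cells. Over all genes tested it was positive for 52.4% and 47.5%. Without the block the medians were 0.61 and 0.67 for the members, against 0.04 and -0.02 over all genes tested. With the block they were 0.38 and 0.65, against 0.04 and -0.01. These medians rest on single values with standard errors of up to 1.06.

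Other genes of the pathway were taken from lists, of which 33 genes were tested. Without the block edgeR called 0 of them in any comparison, so the calls that follow are those with the replicate block. These were 3 of 33 for HIF-1α, 1 of 33 for HIF-2α and 4 of 33 in the direct contrast, beside 7.96%, 0.267% and 5.93% of all genes, and the count for HIF-1α lies near that background. Class 3 semaphorins, ligands that bind neuropilins together with plexins, held 1 call among 5 tested genes for HIF-2α and 2 in the direct contrast. SEMA3F read 29.7, 18.7 and 45.8 CPM in control cells and 6.89, 6.0 and 8.81 in HIF-2α overexpressing cells, and fell by 2.03 on the log2 scale (SE 0.23, edgeR adjusted p = 0.0135, without the block 0.490). It was 2.31 higher in HIF-1α re-expressing than in HIF-2α overexpressing cells (SE 0.24, edgeR adjusted p = 0.00241). SEMA3A, at 18.8, 39.1 and 20.6 CPM in HIF-1α re-expressing and 7.61, 6.84 and 4.96 in HIF-2α overexpressing cells, differed by 1.96 (SE 0.30, edgeR adjusted p = 0.00848). Thus NRP1, SEMA3A and SEMA3F were all lower in HIF-2α overexpressing than in HIF-1α re-expressing cells without overlap. Of all genes, 19.2% did not overlap in this contrast in either direction. The other 3 semaphorins tested had no call there. Their log2 differences were -0.16 for SEMA3B, -0.02 for SEMA3C and 1.16 for SEMA3E. The last is the list's median without the block, against 0.02 over all genes.

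Of 5 tested angiogenesis inhibitors, VASH1, which encodes vasohibin-1, was higher in HIF-1α re-expressing cells than in control cells by 1.34 (SE 0.33, edgeR adjusted p = 0.0454) and than in HIF-2α overexpressing cells by 1.52 (SE 0.34, adjusted p = 0.0348), at 4.98, 2.20 and 7.26 against 1.84, 0.939 and 2.84 CPM in control cells. Of 4 tested genes of the angiopoietin family, ANGPTL6 was higher in HIF-1α re-expressing than in control cells by 3.64 (SE 0.84, edgeR adjusted p = 0.0418), but with 13, 53 and 45 counts against 3, 0 and 4. Of 4 tested genes of the adrenomedullin and endothelin systems, EDN2, the paralog of EDN1, differed by -1.93 between HIF-1α re-expressing and control cells (SE 0.34, edgeR adjusted p = 0.0319) and by -1.40 between HIF-1α re-expressing and HIF-2α overexpressing cells (SE 0.34, adjusted p = 0.0471), lower in the former each time. It too followed the replicate number, with 0.129, 8.36 and 2.37 CPM in control cells, and its ratios to control cells within numbers were 0.379, 0.251 and 0.236. No call was made among 4 tested VEGF and PDGF ligands, 5 receptors and co-receptors or 6 further factors in any comparison. KDR, the principal VEGFA receptor kinase, was at most 0.582 CPM, and NRP2, the other neuropilin, at 143.0 to 454.2 CPM, was 0.85 higher in HIF-1α re-expressing than in control cells without a call (SE 0.32, edgeR adjusted p = 0.206). Without the block, the list medians for HIF-1α re-expressing against control cells were 0.43 for the inhibitors, 1.19 for the angiopoietin family, 0.02 for the adrenomedullin and endothelin systems, 0.54 for the semaphorins, 0.04 for the VEGF and PDGF ligands, 0.85 for the receptors and 0.18 for the further factors. For HIF-2α overexpressing against control cells they were, in the same order, -0.20, -0.87, -0.66, 0.56, 0.19, 0.12 and 0.02, and in the direct contrast 0.58, 1.90, -0.16, 1.16, -0.15, 0.62 and 0.29. With the block the medians for HIF-1α were, in that order, 0.45, 1.21, 0.29, 0.57, 0.07, 0.78 and 0.08. Those for HIF-2α were -0.18, -0.83, -0.37, 0.30, 0.16, 0.14 and -0.12. In the direct contrast they were 0.64, 1.94, -0.08, 1.19, -0.09, 0.60 and 0.23. The fitted differences of the renal markers from control cells were negative for 5 of 5 in both transduced pools. Their medians without the block were -0.69 for HIF-1α and -0.58 for HIF-2α. KRT18 passed the threshold for HIF-1α with the block (-0.86, SE 0.19, edgeR adjusted p = 0.0405), and KRT8, at -0.74 without the block, passed it in DESeq2 (adjusted p = 0.0484) but not in edgeR (0.179, 0.0675 with the block). KRT8 was lower within each replicate number, by ratios of 0.624, 0.630 and 0.542, and so was PAX2, by ratios of 0.693, 0.589 and 0.617. No renal marker passed in edgeR for HIF-2α in either fit. The part of these markers in the results was not tested.

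Binding was read from the peak lists, in which every peak is a window of 2500 bp without a score. A gene was linked to a peak whose midpoint lay within 10 kb of any of its annotated start sites. As this takes in every start site within reach, a linked peak can lie nearer to another gene. Endogenous HIF-2α of control cells had peaks at 3 of 9 members, ANGPTL4, NRP1 and ADM, where 5.33% of 13769 placed genes had one. HIF-1β in control cells had peaks at 6 (25.7% of genes), adding VEGFA, VEGFB and EDN1. HIF-1α had peaks at 5 (34.6%), VEGFA, VEGFB, ANGPTL4, NRP1 and ADM. In the same cells HIF-1β was at 6 (40.8%), with VEGFC in addition, and HIF-2α at 4 (4.22%), VEGFB, ANGPTL4, NRP1 and ADM. Overexpressed HIF-2α had peaks at 5 (14.5%) and HIF-1β beside it at 5 (16.2%), in both cases VEGFA, VEGFB, ANGPTL4, NRP1 and ADM. ANGPTL4, NRP1 and ADM were thus in all 7 lists. In at least 1 list, 7 of 9 members had a peak (55% of placed genes), all but PGF and FLT1. With 1 library per list there is no test of these differences.

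**Figure D4:**
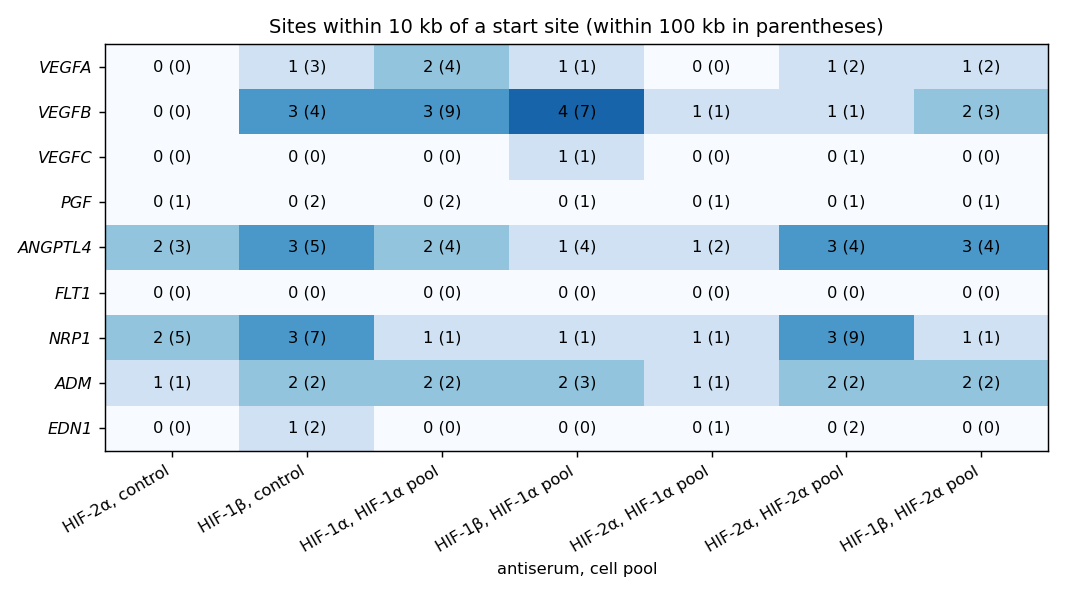
Number of binding sites within 10 kb of a start site of each gene, with the number within 100 kb in parentheses, in the 7 peak lists (columns, antiserum and cell pool; darker cells hold more sites within 10 kb). Peaks of several lists that overlap count as 1 site. FLT1 had none in any list, and NRP1 had 9 sites within 100 kb for overexpressed HIF-2α and 1 for HIF-1α.

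NRP1 (chr10:33466420-33625190, minus strand) had 11 sites within 100 kb of a start site. Only that at the 5′ end of the gene was in all 7 lists, with midpoints from 0.389 kb before the gene to 1.1 kb inside it. The first window printed above is that of a single peak at this site. The window of the HIF-1α peak does not overlap it and held no core, while those of the other lists held 1 to 3. The other 10 sites were found with HIF-2α in control cells, HIF-1β in control cells or HIF-2α in overexpressing cells, and in none of the 3 lists of HIF-1α re-expressing cells. By list, NRP1 had 5 sites for endogenous HIF-2α, 7 for HIF-1β in control cells and 9 for overexpressed HIF-2α, but 1 for HIF-1β in the same overexpressing cells. The site 62.8 kb into the gene, whose window with 2 cores is printed, was in the HIF-2α list of overexpressing cells and in the HIF-1β list of control cells. The lists differ in size, from 1350 to 6572 peaks, and a peak missing from a list is not shown to be unbound.

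**Figure D5:**
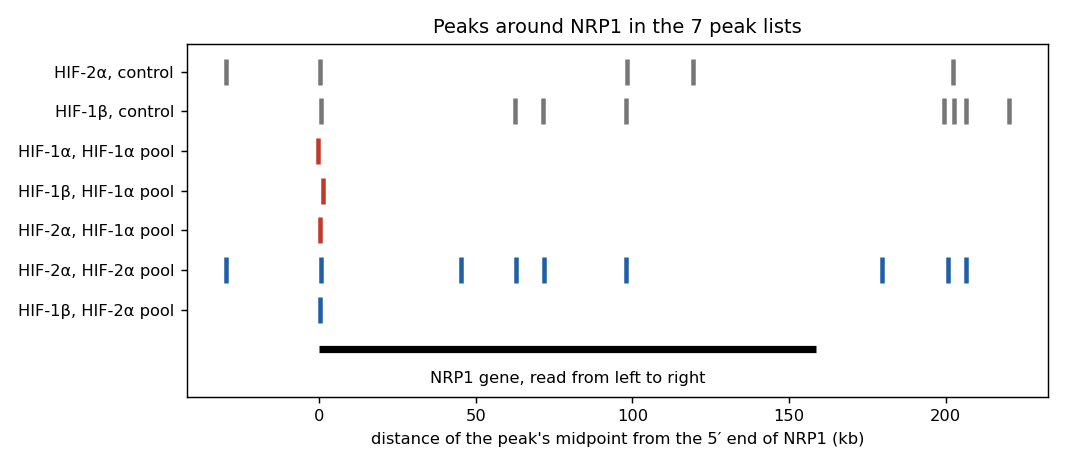
Midpoints of peaks around NRP1 by distance from the 5′ end of the gene (kb, read in the direction of transcription), 1 row per peak list, colored by cell pool. All 7 lists have a peak at the 5′ end, and the remaining peaks, out to 220.3 kb, are in the lists of HIF-2α and HIF-1β in control cells and HIF-2α in HIF-2α overexpressing cells.

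VEGFA (chr6:43737921-43754224) had a site across its 5′ end in 5 lists, those of HIF-1α, overexpressed HIF-2α and HIF-1β in each pool, but in neither HIF-2α list of control or HIF-1α re-expressing cells. The midpoints ran from 0.470 kb before the 5′ end, for overexpressed HIF-2α, to 0.465 kb inside the gene, and each window held 2 or 3 cores. A second site 4.33 kb inside the gene was in the HIF-1α list alone. ADM (chr11:10326620-10328944) had a site before the gene in 5 lists and one beyond its 3′ end in 7. The former had ADM-DT as its nearest annotated gene and SBF2 as its nearest coding gene, and the latter had AMPD3 as its nearest. ANGPTL4 (chr19:8428173-8439254) had sites 7.45 kb before the gene (3 lists), across its 5′ end (7 lists) and in an intron (5 lists), and a further one about 34.2 kb from its nearest start site (6 lists), next to RAB11B-AS1.

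EDN1 (chr6:12290594-12297427) had within 10 kb only the HIF-1β peak of control cells printed above. VEGFC (chr4:177604689-177714076, minus strand) had only a HIF-1β peak of HIF-1α re-expressing cells, 0.308 kb inside the gene and without a core. VEGFB (chr11:64002056-64006736) lies in a stretch dense with genes and had 4 sites, of which that at its own 5′ end was in 4 lists, HIF-1α and HIF-1β of every pool. PGF (chr14:75408537-75422329, minus strand) had none within 10 kb and a site 25.7 kb upstream in 6 lists, closer to EIF2B2. FLT1 (chr13:28874483-29069282, minus strand) had none within 100 kb. Over all members, 41 of the 61 peaks within 10 kb (67.2%) held an HRE core, at 6 genes. Among all peaks, 45.7% to 68.2% by list held one in the same window, so the share of the members lies within that range. The 61 peaks fall on 17 sites and so repeat the same sequence between lists. For the 3 genes with a site in all 7 lists, RNA against control cells differed in direction, being lower for NRP1 and higher for ADM and ANGPTL4 on average in HIF-2α overexpressing cells, with none past the edgeR threshold in either fit.

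As a description, the genes whose log2 CPM was most like that of each member over the 9 libraries were taken by Pearson's r. NRP1 was most like SYT17 (0.974), SPOCK1 (0.973) and TRHDE (0.972), VEGFA like ULK2 (0.964), IPP (0.961) and NS3BP (0.959), and ADM like RAB40C (0.979), C10orf10 (0.969) and PKD1L2 (0.952). The highest r of NRP1 with another member was 0.306, with PGF, while ADM and FLT1 had 0.817. EDN1 was most like KDELC1 (0.978), EGOT (0.972) and ENAM (0.963), and FLT1, at its few counts, like UBXN4 (0.965), SYT13 (0.944) and ADAM9 (0.941). ANGPTL4 was nearest to ZFP41 (0.959), ABCA10 (0.896) and ABCC10 (0.890), and VEGFB to ATF6B (0.949), TOM1 (0.949) and TIGD6 (0.927). VEGFC was nearest to G0S2 (0.948), CASS4 (0.930) and TBL2 (0.912), and PGF to USP11 (0.945), EIF2A (0.945) and HEXIM2 (0.934). The 9 libraries share their replicate numbers, and the best of 14225 genes is high by selection.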

How the data were processed

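PolyA+ RNA-seq and ChIP-seq peaks of 786-O pools were used. The authors aligned RNA-seq reads to GRCh37 by Tophat 2.0.8b with bowtie 1.0.0 and deposited raw counts per UCSC gene from HTSeq 0.5.4p3. The strand setting of the counting is not given in the sources used here, so reads of overlapping antisense genes cannot be told apart. For ChIP-seq they aligned with BWA 0.7.5a-r405, removed low quality, blacklisted and duplicate reads, and deposited positions of peaks called by both T-PIC and MACS and above a background of random DNase regions. The depth of the peak lists is unknown. The 3 input libraries were not used here.

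Counts were scaled by TMM and tested with edgeR 4.0.16 (R 4.3.3), pool only, over all 9 libraries, after edgeR's own filter. Adding the replicate number to the model (the replicate block), DESeq2 1.42.0, limma-voom (limma 3.58.1), other scalings and filters and left-out libraries were alternatives. The SE is the fold change over the square root of F. Labels do not say that replicates were separate cultures, so p-values measure the spread between libraries, which may be technical. After subtracting pool means, libraries of different pools sharing a number correlated at 0.348 to 0.652 (9 pairs) and the others at -0.478 to 0.0281 (18 pairs), so the numbers pair the samples. All replicate pairs within a pool differed beyond counting noise. The edgeR fits were tested on simulated counts in which all genes had the same spread, which was not matched to these data.

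Genes were placed on GRCh37 with the GENCODE annotation, directly or through RefSeq synonyms (13769 of 14225 tested genes), and motifs were searched within 150 bp of peak midpoints (Python 3.11.15). Named genes are the 9 members, listed pathway genes past the threshold in either fit (at most 4 per list, comparison and direction), HIF1A, EPAS1 and the 3 genes most like each member. The members and lists were chosen with earlier results of these data known.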

Additional observations from a re-analysis of the deposited data

Results flagged for a closer look

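NRP1 differed between the 2 transduced pools. In the direct contrast of HIF-1α re-expressing with HIF-2α overexpressing cells, which tests the difference because both are measured against the same control libraries, edgeR with the replicate block gave 2.10 on the log2 scale (SE 0.20, adjusted p = 0.00209), and every replicate number went the same way, with ratios of 3.96, 3.33 and 6.05. Without the block the adjusted p was 0.0527. With 3 libraries per pool, no library was tested as an outlier. Leaving out any single library kept the call with the block (edgeR adjusted p 0.00263 to 0.0191).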

How the results depend on the processing

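The replicate block changed the count of members past the threshold from 0 to 1 in HIF-1α re-expressing against control cells and from 0 to 1 in the direct contrast, NRP1 both times, and left it at 0 in HIF-2α overexpressing against control cells. With the block it changed no other member's call. Over all genes the block moved the count from 0 to 1132, from 0 to 38 and from 7 to 843 in the 3 comparisons. DESeq2 called 1, 0 and 1 members, and DESeq2 with the block 2 (VEGFA and NRP1), 2 (NRP1 and EDN1) and 2 (NRP1 and EDN1). The direct contrast also gave 1 member, NRP1, with limma-voom, with library size only, without a filter and with the stricter filter. The cause was not tested. Leaving out 1 library without the block gave 0 to 0, 0 to 0 and 0 to 1 members, the 1 being without HIF-1α replicate 1 or control replicate 3. Over all genes these fits called 0 to 0, 0 to 2 and 0 to 29. With the block, leaving out 1 replicate number gave 0 to 0, 0 to 0 and 1 to 2 members, beside 0 to 295, 7 to 30 and 265 to 386 of all genes. Leaving out 1 library with the block, an alternative added after seeing the data, gave 0 to 3, 0 to 2 and 1 to 2 members. Over all genes that alternative called 0 to 2408, 2 to 94 and 167 to 890, so the number of calls moved for all genes as well. Without control replicate 1 the 3 were VEGFA, NRP1 and ADM, and without HIF-1α replicate 3 the 2 in HIF-2α overexpressing against control cells were NRP1 and EDN1. Of 800 log2 fold changes of members under an alternative, 725 kept direction and side of the threshold, 37 kept direction and passed it newly, and 38 changed sign without passing it in either fit. Overexpressed HIF-2α had peaks at 8 members within 100 kb (40.4% of placed genes) in place of 5 within 10 kb (14.5%). With the longest transcript as the length, 5 of 9 members kept their place in the order of levels in control cells and 5 of 9 in HIF-2α overexpressing cells. FLT1 had 3 to 13 counts per library, the lowest depth of any member.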
